A study of Mus musculus with 25 samples.

Results

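The Hox cluster genes were followed through H3K27me3 and H3K9me3 peak lists of regenerating mouse myofibers. They were chosen by name, as genes whose symbol is Hox, a letter from a to d and a number, a rule that uses no measured value. The 38 genes analysed lie in 4 clusters (RefSeq, GRCm38.p6), and 20 of them had an H3K27me3 peak in at least 1 of 12 lists, among 6092 genes with a peak. These genes took 437 of 34244 H3K27me3 peaks and 0 of 20998 H3K9me3 peaks.

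Myofibers came from the tibialis anterior, a hindlimb muscle, of mice that all carried the tamoxifen-induced Pax7-Cre(ERT2) driver, which acts in muscle stem cells, and the mito-Dendra2 reporter that marks their progeny. Injury was by BaCl2, and Dendra2+ myofibers were taken at 14 days post injury (dpi). Wild-type (WT) myofibers were compared with mfn2-/- myofibers, which lack the mitochondrial fusion protein mitofusin 2, with vhl-/- myofibers, which lack the protein that targets HIF1α for degradation, and with HIF1dPA myofibers, in which a HIF1α changed from proline to alanine is not degraded this way. For each mark a genotype had 3 libraries. The study describes its ChIP-seq replicates as biological, and counts them as mice where it compares mfn2-/- with WT. Recombination acts in stem cells, so nuclei that were in the fibers before injury need not carry the change.

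Hox genes encode homeodomain transcription factors that give cells their position along the body axis and the limb. They lie in 4 clusters in the order in which they act, from paralogue group 1 (anterior) to paralogue group 13 (posterior), and cells keep part of that pattern in adult life. Where they are silent, Polycomb complexes hold them under H3K27me3, often over broad domains, while H3K9me3 marks another kind of silent chromatin.

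Each list gives peaks called in 1 library, with a score (10 times the negative log10 of the caller's p-value) and the gene to which the authors assigned the peak. The measure used here is covered base pairs, the summed length of the peaks assigned to a gene in a list. Read depth is unknown, so an unlisted gene is one for which no peak passed the caller, and a shorter list cannot be told apart from a shallower library. The H3K27me3 lists of HIF1dPA held 482 to 501 peaks against 3358 to 4035 in the other genotypes. Peaks on the X and Y chromosomes took up part of the mfn2-/- lists, whose autosomal peaks averaged 69.4% of the WT number. Of 15 genes of mature skeletal muscle, 0 had an H3K27me3 peak in any list, and of 8 fibroblast, endothelial and blood genes 3 had one (Pdgfra in 9 lists, Ptprc and Cd3e in 1 each).

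The peaks were unevenly spread over the clusters, as the map of the 4 clusters shows. HoxD was the most densely listed, with 7 of 9 genes assigned a peak, followed by HoxB with 7 of 10, HoxC with 4 of 9 and HoxA with 2 of 10. By paralogue group, 12 of 16 posterior genes (groups 9 to 13), 6 of 11 anterior genes (groups 1 to 4) and 2 of 11 central genes (groups 5 to 8) were assigned a peak. Group 13 was the one group in which each gene was assigned a peak in 9 or more lists. In HoxA, 79.8 kb from chr6:52162417-52242206, which is 81.0% of the length from Hoxa2 to Hoxa13, had no peak in any of 12 lists and holds Hoxa2, Hoxa3, Hoxa4, Hoxa5, Hoxa6, Hoxa7, Hoxa9 and Hoxa10.

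**Figure D1:**
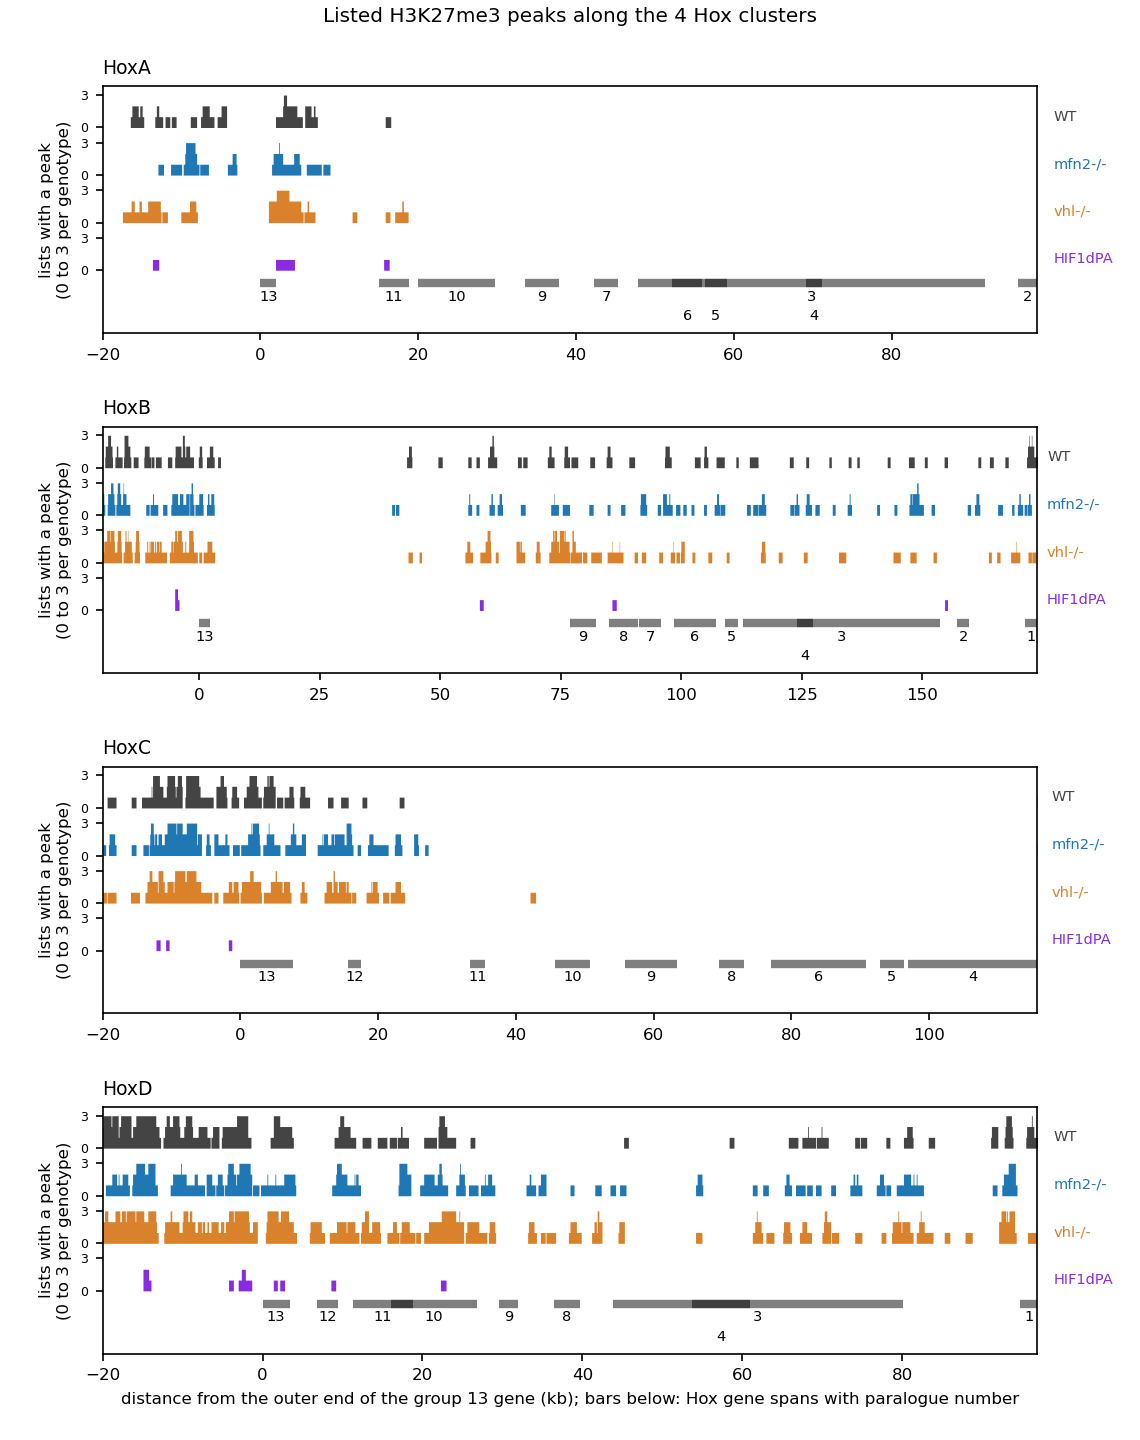
Number of H3K27me3 lists of each genotype (0 to 3) with a peak at each point of the HoxA, HoxB, HoxC and HoxD clusters, against the distance in kb from the outer end of the group 13 gene. Grey bars mark RefSeq gene spans with their paralogue number. Peaks run through HoxB and HoxD, while HoxA and HoxC are listed towards the group 13 end and have stretches of 79.8 and 72.8 kb with no peak.

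HoxC was similar, with no peak over 72.8 kb (chr15:102963937-103036783) that hold Hoxc5, Hoxc6, Hoxc8, Hoxc9 and Hoxc10. The longest empty stretches were 35.5 kb in HoxB, between Hoxb13 and Hoxb9, and 8.42 kb in HoxD, and neither holds a whole Hox gene. The caller numbers its peaks in order of position, and some numbers have no row and were not analysed here. At most 1 such number per list, in 3 lists, could fall in the HoxA stretch, at most 3 per list, in 5 lists, in the HoxC stretch, and at most 4 per list, in 11 lists, in the HoxB stretch.

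The assignment to genes leaves out peaks that touch a Hox gene but were assigned to a neighbour. By overlap with RefSeq gene spans, 23 of 38 Hox genes were touched in at least 1 list, among them all 10 HoxB genes and 8 of 9 HoxD genes, but 2 of 10 in HoxA and 3 of 9 in HoxC. By paralogue group, 8 of 11 anterior, 5 of 11 central and 10 of 16 posterior genes were touched. In group 13, 2 of 4 genes were touched in 9 or more lists, against 4 of 4 by assignment, and in group 3 it was 2 of 3. Hoxb6, to which no peak was assigned, was touched in 8 lists, and Hoxd4 in 4. The 8 HoxA genes within the empty stretch were touched in 0 lists.

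The sequence before 4 start sites is shown for contrast. Hoxd13 had peaks on both sides, and Hoxd10 was covered at its own start. The peaks of Hoxa13 lay mainly beyond the 3′ end of the gene, and Hoxa5 lies in the empty HoxA stretch. Each sequence is the 250 bases before the RefSeq start in GRCm38.p6, 5′ to 3′ on the gene's strand, with CG dinucleotides in capitals.
Hoxd13 (chr2:74667975-74668224, plus strand): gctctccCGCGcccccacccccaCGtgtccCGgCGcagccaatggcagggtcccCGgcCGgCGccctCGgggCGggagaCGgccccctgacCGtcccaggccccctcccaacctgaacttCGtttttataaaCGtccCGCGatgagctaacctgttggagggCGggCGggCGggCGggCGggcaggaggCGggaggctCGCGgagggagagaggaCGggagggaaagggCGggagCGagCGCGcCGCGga
Hoxd10 (chr2:74691641-74691890, plus strand): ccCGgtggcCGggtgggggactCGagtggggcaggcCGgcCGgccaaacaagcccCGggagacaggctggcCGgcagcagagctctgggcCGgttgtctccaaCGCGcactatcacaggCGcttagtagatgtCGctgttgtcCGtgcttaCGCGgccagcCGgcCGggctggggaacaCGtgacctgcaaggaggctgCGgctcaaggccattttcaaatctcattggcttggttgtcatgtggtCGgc
Hoxa13 (chr6:52260881-52261130, minus strand): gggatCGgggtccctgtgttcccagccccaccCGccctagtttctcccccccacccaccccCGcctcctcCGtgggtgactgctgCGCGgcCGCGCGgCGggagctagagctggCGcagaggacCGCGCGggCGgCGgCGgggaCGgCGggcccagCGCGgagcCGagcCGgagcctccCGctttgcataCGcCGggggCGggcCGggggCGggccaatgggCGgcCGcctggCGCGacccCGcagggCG
Hoxa5 (chr6:52204588-52204837, minus strand): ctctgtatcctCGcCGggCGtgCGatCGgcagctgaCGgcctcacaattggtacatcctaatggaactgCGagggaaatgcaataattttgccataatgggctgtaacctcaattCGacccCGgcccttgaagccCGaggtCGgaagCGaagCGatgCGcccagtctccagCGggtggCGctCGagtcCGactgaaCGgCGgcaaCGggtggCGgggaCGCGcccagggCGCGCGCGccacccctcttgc

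These 250-base windows are rich in CG dinucleotides. They hold 31 in Hoxd13, 20 in Hoxd10, 35 in Hoxa13 and 28 in Hoxa5, against a median of 6 over 32851 mouse windows of this length. A listed peak touched the window in 1 of 12 lists for Hoxd13 (mfn2-/-), in 4 for Hoxd10 (1 WT and 3 vhl-/-) and in 0 for Hoxa13 and Hoxa5. RefSeq windows were at hand for 22 Hox genes (24 windows). The median CG count was 12 in the 10 windows touched by a peak and 13 in the 14 that were not.

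At the Hox start sites with a window at hand, peaks lay beside the start more often than over it. In the 9 lists of WT, mfn2-/- and vhl-/-, for the 17 Hox start sites with a peak within 5 kb, 28.1% of site and list pairs were under a peak 1250 bp before the start. That share was 11.1% at 500 bp before it, 13.1% at the start and 25.5% at 2500 bp after it. At 3608 other start sites chosen in the same way the shares at these 4 positions were 7.17%, 7.11%, 6.54% and 6.41%. The dip is a description, since neighbouring Hox windows overlap. The Hox sites used are mainly in HoxD and do not include Hoxb13 or Hoxc13. At Hoxd13, 9 of 9 lists had a peak 2000 bp before the start, 1 had one at the start and 7 had one 3000 bp after it. Hoxd1 was covered in 8 of 9 lists at 1000 bp before its start and in 0 at the start, whereas at Hoxd10 the counts were 7 and 4.

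**Figure D2:**
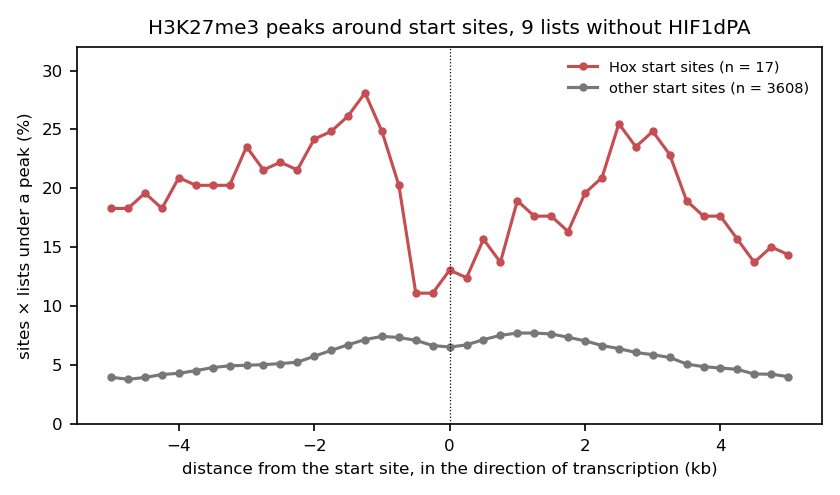
Share of start site and list pairs under an H3K27me3 peak (%) against the distance from the start site in kb, for 17 Hox start sites and 3608 others with a peak within 5 kb, over the 9 lists of WT, mfn2-/- and vhl-/-. The Hox curve stands at 28.1% at 1250 bp before the start and at 13.1% on it, and the curve of other genes runs from 3.80% at 4750 bp before the start to 7.73% at 1250 bp after it, with 6.54% at the start.

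Hox peaks recurred between libraries more than peaks in general. When overlapping peaks of the 12 lists were merged, 32.9% of 79 regions with a Hox peak came from 1 list, compared with 73.4% of all 15965 regions. Regions present in 6 or more lists made up 29.1% and 5.81%. In WT, 63.8% ± 1.19 of Hox peaks (SD, n = 3) were in the authors' promoter classes, which reach 3 kb, against 49.4% ± 0.697 of all peaks. Hox peaks in WT stood at a median score percentile of 73.7 ± 2.61 within their list (SD, n = 3).

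H3K9me3 gave no counterpart. None of the 12 H3K9me3 lists assigned a peak to a Hox gene, and 0 peaks touched a cluster. The nearest H3K9me3 peak of any list was 645 kb from HoxA, 1429 kb from HoxB, 379 kb from HoxC and 229 kb from HoxD. The following values are for H3K27me3.

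To ask how the genotypes differ, covered base pairs assigned to all Hox genes were summed in each library. WT libraries had 42000, 41164 and 40464 bp, and mfn2-/- libraries 52618, 46825 and 48839 bp. In vhl-/- libraries the sums were 63952, 70197 and 59987 bp, and in HIF1dPA libraries 1886, 5847 and 4114 bp. Each mfn2-/- and vhl-/- library lay above all WT libraries and each HIF1dPA library lay below them. The WT mean was 41209 ± 769 bp. The mutants averaged 49427 ± 2941 bp without mfn2 (119.9% of WT), 64712 ± 5147 bp without vhl (157%) and 3949 ± 1986 bp for HIF1dPA (9.58%; SD, n = 3 each). Over all genes the covered length of the list was 90.2%, 117% and 10.7% of WT, so the HIF1dPA loss at Hox genes was close in size to that of its whole list. The number of Hox genes with a peak moved less, with 13 to 14 in WT, 15 to 17 in mfn2-/-, 14 to 16 in vhl-/- and 3 to 4 in HIF1dPA libraries. By position, WT libraries had 5, 5 and 4 anterior and 8, 8 and 9 posterior genes with a peak. The vhl-/- libraries had 3, 3 and 4 anterior and 11, 9 and 10 posterior genes. Their anterior genes averaged 71.4% of WT but overlapped it, and averaged 150% of WT when only peaks with a score of at least 100 were kept. In covered base pairs, anterior genes had 12667 ± 2927 bp in vhl-/- and 7352 ± 3174 bp in WT (172%; SD, n = 3 each), and the libraries again overlapped. HIF1dPA libraries had 0 anterior genes and 3, 4 and 3 posterior genes.

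**Figure D3:**
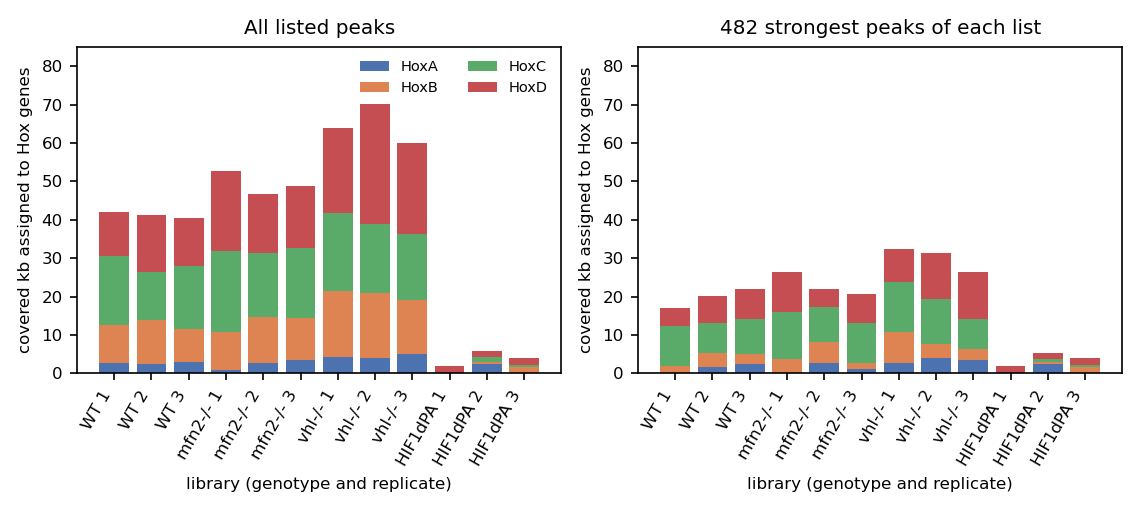
Covered kb assigned to Hox genes in each H3K27me3 library, stacked by cluster, for all listed peaks (left) and for the 482 strongest peaks of each list (right). HIF1dPA libraries are lowest in both panels, and vhl-/- libraries are highest in the left panel.

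With lists set to equal length, the 482 strongest peaks each, the order of the means stayed. Hox genes then had 19660 ± 2436 bp in WT, 23038 ± 2944 bp in mfn2-/-, 30089 ± 3124 bp in the vhl-/- lists, and 3759 ± 1724 bp in HIF1dPA (SD, n = 3 each). In this setting vhl-/- libraries lay above and HIF1dPA libraries below all WT libraries, and mfn2-/- overlapped WT. HIF1dPA stood at 19.1% of WT for Hox genes and at 41.2% for the covered length of the whole list. At equal length the median Hox peak was 714 ± 137 bp wide in HIF1dPA and 1454 ± 83.3 bp in WT, and the median peak of the whole list 618 ± 6.17 and 1506 ± 95.5 bp (SD, n = 3 each). As a share of peaks, Hox genes took 1.06% ± 0.0161 of WT, 1.45% ± 0.0948 of mfn2-/-, 1.36% ± 0.0981 of vhl-/- and 0.941% ± 0.294 of HIF1dPA lists (SD, n = 3 each). The HIF1dPA share overlapped that of WT. It stood at 36.1% of the WT mean with equal list length and at 127% among peaks with a score of at least 100, where it rests on 2 Hox peaks, at Hoxa13 in replicate 2 and Hoxd13 in replicate 3. Leaving out X and Y peaks raised the mfn2-/- share to 2.08% ± 0.139.

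HoxD was the cluster in which vhl-/- differed most from WT. Listed peaks covered 10.8%, 14.7% and 14.5% of the HoxD cluster in WT libraries and 21.9%, 17.2% and 16.1% in mfn2-/- libraries. In vhl-/- libraries they covered 28.4%, 31.8% and 27.4%, and in HIF1dPA libraries 1.95%, 0% and 0.575%. The 4 genotypes did not overlap here, but with equal list length mfn2-/- (3.60% to 9.99%) overlapped WT (3.33% to 6.54%) and vhl-/- (8.19% to 12.7%). The vhl-/- mean, 29.2% ± 2.32, was 219% of the WT mean of 13.3% ± 2.19 (SD, n = 3 each). In HoxC, coverage was 5.33% ± 1.77 in WT, 8.98% ± 2.01 in mfn2-/- and 8.40% ± 0.726 in vhl-/-, and 0% in each HIF1dPA library. The mfn2-/- mean was 169% of WT in HoxC and 138% in HoxD. HoxB stood at 8.23% ± 0.867 in WT, 10.1% ± 0.531 in mfn2-/-, 10.8% ± 1.12 in vhl-/- and 0.441% ± 0.764 in HIF1dPA, and HoxA, from Hoxa2 to Hoxa13, at 2.94% ± 0.612, 2.95% ± 0.976, 4.96% ± 0.230 and 1.06% ± 1.29 in the same order (SD, n = 3 each).

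**Figure D4:**
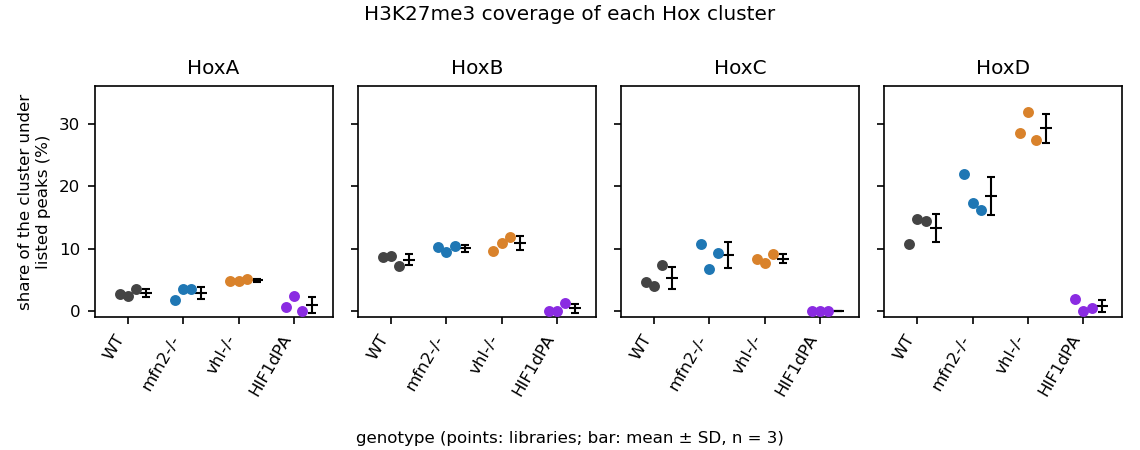
Share of each Hox cluster (first to last Hox gene analysed, %) under listed H3K27me3 peaks, with a point for each library and a bar for the mean ± SD of the genotype (n = 3). In HoxD the vhl-/- libraries sit between 27.4% and 31.8% and the WT libraries between 10.8% and 14.7%.

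Per gene, 17 Hox genes had a peak in at least 3 lists and were tested among 2394 such genes. Across the 4 genotypes, 0 of 17 had an adjusted p under 0.05 in the exact permutation test with Benjamini-Hochberg adjustment, where 1.84% of all genes did. The lowest adjusted p was 0.0549, at Hoxd10 (unadjusted exact p = 0.00156), followed by 0.0630 at Hoxd3 (unadjusted exact p = 0.00305). Unadjusted, 11 of 17 Hox genes and 33.2% of all genes had a p under 0.05. A gene with equal values in 3 genotypes and 0 in the fourth has an exact p of 0.0182 in this test. That is because 280 of 15400 arrangements keep the 3 libraries of the fourth together. After adjustment over the genes tested, an exact p of 0.0182 became an adjusted p of 0.0734, so such a gene could not pass 0.05. Where the remaining libraries differ from each other p can be lower, as at Hoxb13 (unadjusted exact p = 0.00714, adjusted p = 0.0734). The count of 0 of 17 therefore cannot decide whether Hox genes differ in HIF1dPA alone. Setting WT against all 9 mutant libraries gave adjusted p under 0.05 at 0 Hox genes and 0% of all genes. Unadjusted exact p was under 0.05 at 0 Hox genes, at 9.15% of all genes with the mutants lower and at 0% with the mutants higher. The lowest adjusted p of a Hox gene was 0.902 in this permutation test. With 220 arrangements its smallest exact p before adjustment is 0.00455. It also pools vhl-/- and mfn2-/- libraries with HIF1dPA libraries, whose Hox sums lay on opposite sides of WT. The test therefore cannot decide whether a single mutant differs from WT.

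Genotypes were then compared with WT in pairs, where a gene counted as different if the 3 libraries of one genotype did not overlap the 3 of the other. The smallest exact p of 3 against 3 is 0.1, so none of these pairs can pass 0.05. HIF1dPA lay below WT at 10 of 17 Hox genes, where 28.9% of all genes did, and above WT at 0 of 17 (0.125% of all genes). These 10 were Hoxb1, Hoxb3, Hoxb13, Hoxc13, Hoxd1, Hoxd3, Hoxd10, Hoxd11, Hoxd12 and Hoxd13. The median difference of HIF1dPA from WT was -1066 bp over the 17 Hox genes and -529 bp over all genes tested. A gene can lie below WT only if all 3 WT libraries list it. The count and the median therefore also depend on how often and how widely a gene was listed in WT. Relative to WT, HIF1dPA held 9.58% of the covered base pairs at Hox genes and 10.7% over whole lists. With the 482 strongest peaks per list, 3 of 9 tested Hox genes lay below WT (Hoxb13, Hoxc13 and Hoxd12), where 23.6% of all genes did.

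The vhl-/- libraries lay above WT at 5 of 17 Hox genes, Hoxa13, Hoxc12, Hoxd3, Hoxd10 and Hoxd13, where 6.22% of all genes did, and below WT at 0 of 17 (2.42% of all genes). The median difference from WT was 1046 bp over the 17 Hox genes and 63.0 bp over all genes. A gene can lie above WT only if all 3 libraries of the mutant list it. Count and median therefore again depend on how often and how widely a gene was listed. With equal list length the count was 2 of 9 (Hoxa13 and Hoxd10; 4.98% of all genes), and with each gene as a share of its list 2 of 17 (Hoxc12 and Hoxd10; 4.43%). By presence or absence the count was 0 of 17 (1.55%). Without vhl-/- replicate 1 (12.7% of all genes) or without replicate 3 (13.6%) it was 8 of 17. The mfn2-/- libraries lay above WT at 2 of 17 Hox genes, Hoxb4 and Hoxd3, where 9.61% of all genes did, and below WT at 0 of 17, where 10.1% of all genes did. Their median difference was 248 bp over the Hox genes and -238 bp over all genes. The values over all genes include genes on X and Y, whose peaks took up part of the mfn2-/- lists, while the Hox genes are autosomal. The mfn2-/- count was 0 of 9 with equal list length (4.98% of all genes) and 6 of 17 without mfn2-/- replicate 2 (4.45%). The 3 comparisons share the WT libraries.

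**Figure D5:**
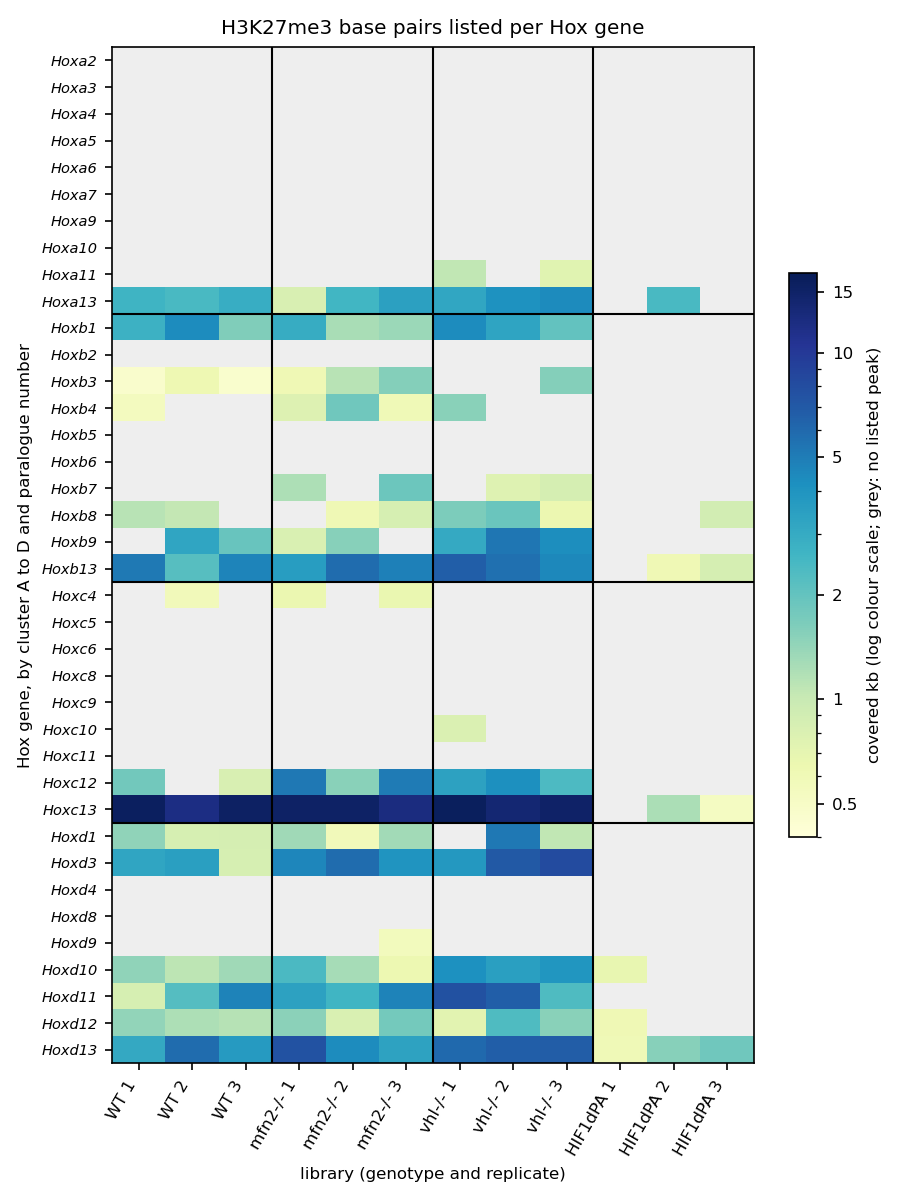
Covered kb per Hox gene (rows, by cluster and paralogue number) in each H3K27me3 library (columns), on a log colour scale, with grey where no peak was listed. Hoxd13 is coloured in 12 of 12 libraries, and Hoxc13 is the darkest row outside HIF1dPA. Peaks assigned to a gene are counted also where they lie outside it.

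Among the group 13 genes, Hoxd13 (ENSMUSG00000001819), which with Hoxa13 shapes the digits, was the one Hox gene listed in all 12 libraries. It had 3108, 5790 and 3663 bp in WT, 7591, 4346 and 3298 bp in mfn2-/-, 5978, 6565 and 6662 bp in vhl-/- and 599, 1551 and 1834 bp in HIF1dPA. Each vhl-/- library exceeded each WT library and each HIF1dPA library fell short of them, while mfn2-/- overlapped WT. The vhl-/- mean was 6402 ± 370 bp and the WT mean 4187 ± 1416 bp (SD, n = 3 each; exact p across the 4 genotypes 0.0145, adjusted p = 0.0734). Its strongest peak, in vhl-/- replicate 2 at chr2:74668812-74672460, began inside the gene and had a score of 429.39.

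Hoxc13 (ENSMUSG00000001655), needed for hair and nails, had the most assigned base pairs of any Hox gene outside HIF1dPA, summed over several peaks per library. Much of this length lay in intergenic peaks outside the gene and outside the HoxC cluster. The gene spans chr15:102921131-102928814, while peaks assigned to it began as far away as chr15:102828668. Of its 109 peaks over all lists, 24 were in the promoter classes. Hoxc13 had 15984, 12051 and 15520 bp in WT, 15205, 15221 and 12354 bp in mfn2-/- and 16046, 13682 and 15014 bp in vhl-/-. HIF1dPA libraries had 0, 1235 and 525 bp, so the other genotypes overlapped each other and HIF1dPA lay below all of them (exact p across the 4 genotypes 0.0155, adjusted p = 0.0734). The HIF1dPA mean was 587 ± 620 bp, against 14518 ± 2149 bp in WT (SD, n = 3 each). The top Hox peak of 7 lists was a Hoxc13 peak, with a score of up to 447.77 (vhl-/- replicate 3).

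Hoxb13 (ENSMUSG00000049604), active in the tail end of the body and the prostate, had 5141, 2218 and 4658 bp in WT and 3589, 5754 and 4859 bp in mfn2-/-. It had 6596, 5631 and 4522 bp in vhl-/- and 0, 604 and 868 bp in HIF1dPA (exact p across the 4 genotypes 0.00714, adjusted p = 0.0734). Again HIF1dPA alone did not overlap WT. Hoxa13 (ENSMUSG00000038203) had 2657, 2443 and 2904 bp in WT and 829, 2577 and 3428 bp in mfn2-/-. The vhl-/- libraries, with 3181, 4093 and 4396 bp, lay above WT. In HIF1dPA it was listed in replicate 2 with 2457 bp and at 0 in the other 2 libraries, so HIF1dPA overlapped WT. That 1 peak (chr6:52256522-52258978) ranked 5 of 499 in its list, with a score of 210.96.

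The HoxD genes of groups 10 to 12 pattern the limb. Hoxd10 (ENSMUSG00000050368) had 1469, 1095 and 1313 bp in WT, 2391, 1259 and 639 bp in mfn2-/-, 4163, 3492 and 3907 bp in vhl-/- and 680, 0 and 0 bp in HIF1dPA. The vhl-/- libraries lay above those of every other genotype, with a mean 2.98 times that of WT (3854 ± 339 against 1292 ± 188 bp; SD, n = 3 each). In vhl-/- replicate 3 this was 1 unbroken peak of 3907 bp at chr2:74689003-74692909, which spans the promoter sequence printed for Hoxd10. Hoxd11 (ENSMUSG00000042499) had 846, 2237 and 4735 bp in WT and 3373, 2624 and 4690 bp in mfn2-/-. With 7608, 6623 and 2338 bp its vhl-/- libraries overlapped WT, and it was listed at 0 in HIF1dPA. Hoxd12 (ENSMUSG00000001823) had 1435, 1211 and 1145 bp in WT, 1512, 814 and 1779 bp in mfn2-/-, 733, 2353 and 1534 bp in vhl-/- and 607, 0 and 0 bp in HIF1dPA. For both genes HIF1dPA alone was set apart from WT.

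Hoxc12 (ENSMUSG00000050328), next to Hoxc13, was listed in 8 lists. It had 1782, 0 and 827 bp in WT, 5214, 1533 and 5057 bp in mfn2-/-, 3373, 4199 and 2357 bp in vhl-/- and 0 bp in HIF1dPA. Only vhl-/- was separate from WT, since WT replicate 2 had no peak and mfn2-/- replicate 2 lay under WT replicate 1.

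Of the central genes, Hoxb8 (ENSMUSG00000056648) had 1129, 1046 and 0 bp in WT, 0, 604 and 849 bp in mfn2-/- and 1678, 1903 and 647 bp in vhl-/-. It was the one gene outside groups 10 to 13 listed in HIF1dPA, with 887 bp in replicate 3, and all mutants overlapped WT.

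Among anterior genes, Hoxd3 (ENSMUSG00000079277), which takes part in forming the first neck vertebrae, differed most. It had 3218, 3464 and 848 bp in WT, 4602, 5793 and 3955 bp in mfn2-/- and 3811, 7049 and 8100 bp in vhl-/-, and was listed at 0 in HIF1dPA. Both deletion genotypes lay above WT, with means of 4783 ± 932 and 6320 ± 2236 bp against 2510 ± 1445 bp (SD, n = 3 each), and WT replicate 3 was the lowest of these 9 libraries. Hoxb1 (ENSMUSG00000018973), a hindbrain gene, had 2763, 4322 and 1609 bp in WT, 2941, 1238 and 1362 bp in mfn2-/- and 4352, 3251 and 2027 bp in vhl-/-. It was listed at 0 in HIF1dPA, and its other genotypes overlapped.

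Hoxb3 (ENSMUSG00000048763) had 466, 624 and 461 bp in WT, 605, 1121 and 1565 bp in mfn2-/- and 0, 0 and 1574 bp in vhl-/-. Hoxb4 (ENSMUSG00000038692), known for promoting the growth of blood stem cells, had 541, 0 and 0 bp in WT, 775, 1827 and 595 bp in mfn2-/- and 1530, 0 and 0 bp in vhl-/-. Hoxd1 (ENSMUSG00000042448) had 1461, 851 and 857 bp in WT, 1322, 572 and 1298 bp in mfn2-/- and 0, 5244 and 1062 bp in vhl-/-. These sums come from different places. The RefSeq span of Hoxd1 was touched in 3 WT, 0 mfn2-/- and 1 vhl-/- lists, and the mfn2-/- peaks were all intergenic. With promoter peaks only, Hoxd1 lay below WT in mfn2-/-, where 8.4% of all genes did. In HIF1dPA Hoxb3, Hoxb4 and Hoxd1 were listed at 0, as were all 11 anterior Hox genes analysed.

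The remaining genes with a peak were Hoxb9 in 7 lists, Hoxb7 in 4, Hoxc4 in 3, Hoxa11 in 2 and Hoxc10 and Hoxd9 in 1 each, and none of them was listed in HIF1dPA. Hoxb9 had no peak in WT replicate 1 and mfn2-/- replicate 3, and reached 3040, 5340 and 4236 bp in vhl-/- (exact p across the 4 genotypes 0.0123, adjusted p = 0.0734). Hoxb7 was listed at 0 in all 3 WT libraries and had a peak in 2 libraries each of mfn2-/- and vhl-/-. The 18 genes with no assigned peak in any list were the 8 HoxA genes of the empty stretch with Hoxb2, Hoxb5, Hoxb6, Hoxc5, Hoxc6, Hoxc8, Hoxc9, Hoxc11, Hoxd4 and Hoxd8.

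What HIF1dPA lists kept was mainly posterior, as were the strongest Hox peaks of the other genotypes. With equal list length 5.67 of 6.67 Hox genes per WT library and 6.67 of 7.67 per vhl-/- library were posterior, and WT replicate 3 and vhl-/- replicates 1 and 2 had 0 anterior genes. All peaks counted, HIF1dPA lists held 14 peaks assigned to Hox genes, to Hoxd13 in 3 libraries, Hoxb13 and Hoxc13 in 2 each and Hoxa13, Hoxb8, Hoxd10 and Hoxd12 in 1 each. The HIF1dPA peaks assigned to Hoxb13 and Hoxc13 did not touch the RefSeq spans of these genes. All 14 overlapped a WT peak, as 48.9% of the 1482 HIF1dPA peaks did. Their scores reached from 50.14, near the lists' minimum of 50, to 210.96 at Hoxa13. The strongest Hoxd13 peak in HIF1dPA (chr2:74665597-74666873, replicate 3) ranked 14 of 501 and lay before the Hoxd13 promoter sequence shown.

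Genes linked to the Hox system were counted from further lists. Of 13 ParaHox and Hox-linked homeobox genes, which arose beside or together with the Hox clusters, 13 had an H3K27me3 peak and 6 were listed in HIF1dPA. Among them Evx2, which adjoins Hoxd13, had 13854, 10798 and 13616 bp in WT, 6539, 8314 and 9657 bp in mfn2-/-, 11738, 14026 and 12628 bp in vhl-/- and 0, 664 and 1075 bp in HIF1dPA (exact permutation test across the 4 genotypes, adjusted p = 0.0444). Its mfn2-/- libraries lay below WT and its vhl-/- libraries overlapped WT. Of 18 gene symbols looked up beside the clusters, Lnp and Lnpk among them, 8 had a peak. Skap1, beside HoxB, had 13391, 14589 and 10395 bp in WT and 8353, 7277 and 9216 bp in mfn2-/-. It had 12710, 15061 and 12693 bp in vhl-/- and 0, 1413 and 1404 bp in HIF1dPA (exact permutation test across the 4 genotypes, adjusted p = 0.0444). Its mfn2-/- libraries, too, lay below WT. Skap2, beside HoxA, had 4425, 4692 and 6581 bp in WT, 3658, 1432 and 5965 bp in mfn2-/-, 1877, 1947 and 1980 bp in vhl-/- and 0 bp in HIF1dPA, so vhl-/- and HIF1dPA lay below WT. Of 18 non-coding genes within the clusters 10 had a peak, led by Hottip in 10 lists and Haglr, Hoxb3os and Hoxb5os in 9 each.

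Genes that mark limb identity were all listed. Pitx1, a hindlimb regulator, Tbx4, Tbx5 and Shox2 had a peak in 10 lists each, in all 9 lists outside HIF1dPA and in 1 HIF1dPA list. Pitx1 had 1904, 2776 and 3800 bp in WT, 2187, 1687 and 1060 bp in mfn2-/-, 4929, 4930 and 4599 bp in vhl-/- and 0, 0 and 606 bp in HIF1dPA (exact permutation test across the 4 genotypes, adjusted p = 0.0415). Genes that write, bind or remove the mark were counted too. Of 12 genes of PRC2, the complex that writes H3K27me3, 4 had a peak and 0 had one in HIF1dPA, with Epop in 8 lists. Of 19 genes of PRC1, which binds the mark, 7 had a peak, with Bmi1 and Cbx8 in 10 lists each. Of 11 H3K27 demethylase and Trithorax genes 1 had a peak (Kmt2a, in 1 list), and of 9 TALE cofactors of Hox proteins 4 had one, with Meis2 in 11 lists.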

How the data were processed

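H3K27me3 and H3K9me3 ChIP-seq peak lists of 24 libraries (4 genotypes, 3 replicates, 2 marks) were analysed. Per the labels, the authors used BWA 0.7.5, MACS, deepTools 3.5.0 and the mm10 build. The deposited score of a peak is 10 times the negative log10 of its p-value, and no other unit or depth is given. Peaks had been called and assigned to genes by the authors in each library. RefSeq GRCm38.p6, the same assembly as mm10, gave gene spans and promoter sequences.

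Covered base pairs per gene were compared over libraries, with exact permutation tests across all 2394 genes listed in at least 3 of 12 lists (15400 and 220 arrangements, Benjamini-Hochberg adjustment at 0.05) and, in pairs of genotypes, by whether the libraries overlap. Tests were tested on simulated data. Hox genes with a peak in 9 or more lists, in a HIF1dPA list or apart from WT are given in every library. Members and lists were chosen with earlier results of these data known. One item is not reported here. The input library was not used. Equal replicate numbers were not treated as pairs, since the labels name no shared animal and deviations of same-numbered libraries had a mean correlation of 0.00395. Alternatives are described in the closing section. Python 3.11.15, numpy 2.4.6, pandas 2.3.3, scipy 1.17.1 and matplotlib 3.10.9 were used.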

Additional observations from a re-analysis of the deposited data

Results flagged for a closer look

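In the values below, all 3 libraries of one mutant lay above every WT library while all 3 of another lay below. The difference between the mutants was not tested. Base pairs assigned to Hox genes were 157% of the WT mean in vhl-/- and 119.9% in mfn2-/-, against 9.58% in HIF1dPA. In HoxB the values were 159% in vhl-/- and 7.83% in HIF1dPA, and in HoxD 199% in vhl-/-, 135% in mfn2-/- and 13.6% in HIF1dPA. HoxB in HIF1dPA ranged from 3.01% (without HIF1dPA replicate 3) to 11.7% (without HIF1dPA replicate 1) when 1 library was left out. With equal list length vhl-/- overlapped WT in HoxB, and mfn2-/- overlapped WT in the total and in HoxD. By gene, Hoxd10 stood at 298% in vhl-/- and 17.5% in HIF1dPA, Hoxd13 at 153% and 31.7%, and Hoxd3 at 252% in vhl-/- and 191% in mfn2-/- while it was listed at 0 in HIF1dPA. With equal list length Hoxd10 still lay above WT in vhl-/-. Its HIF1dPA libraries then overlapped WT, as did all mutants at Hoxd13 and Hoxd3. The comparisons share the WT libraries.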

How the results depend on the processing

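Depth is unknown and each list stops at a score of 50, so no value is given for Hox genes under that score, and lists of unequal length cannot be told apart from unequal depth. Values in percent are of the WT mean. The cause of the changes was not tested.

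Counts of Hox genes apart from WT depended on the setting. In the parentheses that follow stands the percentage of all genes tested in that setting. The count for HIF1dPA below WT, 10 of 17 as reported (28.9%), was 4 of 11 with scores of at least 100 (31.6%), 3 of 9 with the same number of strongest peaks (23.6%, also of autosomal peaks alone, a setting chosen after seeing the data), 5 of 17 by presence or absence (16.2%) and 6 of 17 as a share of list base pairs (16.7%). For vhl-/- above WT, 5 of 17 as reported (6.22%), it was 2 of 9 with equal numbers (4.98%) and with equal autosomal numbers (4.90%), 0 of 17 by presence or absence (1.55%) and 2 of 17 with shares (4.43%). For mfn2-/- above WT, 2 of 17 as reported (9.61%), it was 0 of 11 with scores of at least 100 (3.4%), 0 of 9 with equal numbers (4.98%) and equal autosomal numbers (3.79%), and 0 of 17 by presence or absence (8.44%). Across the 4 genotypes it was 1 of 11 (Hoxc13) with scores of at least 100 (8.60%), against 0 of 17 as reported (1.84%). With the replicate block, which shares only a number, the count was 4 where mfn2-/- was above WT (11.1%), 7 where vhl-/- was above (11.7%) and 10 where HIF1dPA was below (30.3%), and 0 across the 4 genotypes (0%), each of 17. The mean correlation of same-numbered libraries was 0.00395.

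With scores of at least 100, Hox genes per library were 105% in mfn2-/-, 141% in vhl-/- and 9.09% in HIF1dPA, base pairs 107% in mfn2-/- and 184% in vhl-/-, and the share of the list 115% in vhl-/- and 127% in HIF1dPA, which turned from below to above WT (88.7% with all peaks). Base pairs in vhl-/- were 195% in HoxB, 133% in HoxC and 254% in HoxD, and HoxD was 6.64% in HIF1dPA. Anterior genes were 150% in vhl-/-, where the value with all peaks was 71.4%, and posterior genes 133% in vhl-/- and 11.1% in HIF1dPA. Score percentiles were 60.9 in WT, 53.7 in mfn2-/- and 57.1 in vhl-/-.

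With the same number of strongest peaks, Hox genes were 55.0% in HIF1dPA, also with equal autosomal numbers. Base pairs in HIF1dPA were 19.1%, and shares 122%, 111% and 36.1% in mfn2-/-, vhl-/- and HIF1dPA. HoxA was 248% and HoxB 183% in vhl-/-, HoxB 29.3% and HoxD 27.4% in HIF1dPA and posterior genes 58.8% in HIF1dPA. Score percentiles were 58.7 in WT and 54.1 in mfn2-/-.

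With all peaks within the cluster windows, Hox genes were 126% in vhl-/- and 17.9% in HIF1dPA, base pairs 134% in mfn2-/-, the share 56.8% in HIF1dPA, HoxB 131% and HoxC 154% in vhl-/-, HoxD 6.20% in HIF1dPA, posterior genes 156% in vhl-/- and score percentiles 62.4 in WT and 63.6 in mfn2-/-. With promoter peaks only, Hox genes were 102% in mfn2-/- and 19.5% in HIF1dPA, base pairs 170% in vhl-/-, the share 169% in mfn2-/-, HoxC 133% and anterior genes 57.1% in vhl-/-, HoxD 11.9% and posterior genes 28.0% in HIF1dPA and score percentiles 63.9 in WT and 61.3 in mfn2-/-. Joining peaks within 1000 bp gave 105% for HoxC in vhl-/-, and leaving out X and Y peaks, chosen after seeing the data, gave a share of 196% in mfn2-/-.

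Leaving out 1 library at a time gave 0 to 1 Hox genes across the 4 genotypes (Hoxd10 without mfn2-/- replicate 3, Hoxd3 without vhl-/- replicate 1), 2 to 6 for mfn2-/-, 5 to 8 for vhl-/- and 10 to 12 for HIF1dPA, with 6 without mfn2-/- replicate 2 (4.45% of all genes) and 8 without vhl-/- replicate 1 (12.7%) or 3 (13.6%). Hox genes below WT, 0 as reported, were 0 to 1 for mfn2-/- and for vhl-/-. Promoter peaks alone gave 1 of 16 for mfn2-/- (Hoxd1; 8.4% of all genes). HoxC in vhl-/- was 108% (without WT replicate 2) to 128%, and Hox base pairs 116% to 123% in mfn2-/-, 150% to 163% in vhl-/- and 7.28% to 12.1% in HIF1dPA. The share of the list in HIF1dPA was 76.4% to 104%. No H3K9me3 list gained a Hox peak in any setting.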
